A study of Mus musculus with 12 samples.

Results

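The genes described here are Zfp36, Zfp36l1, Zfp36l2, Rc3h1, Rc3h2 and Zc3h12a, which encode the Zfp36, Roquin and Regnase-1 proteins that bind the 3′ untranslated region (UTR) of mRNAs and hasten their decay. They were taken by name, as the rows whose Ensembl mouse identifier belongs to these symbols, and make up 6 of the 45669 rows of the count table; each had a row of its own. CD4+ T cells were taken from lymph node of C57BL6 mice at an age of 12 weeks and purified by depleting other cells with magnetic beads. Anaef cells were homozygous for the Anaef allele of Rasgrp1, a guanine nucleotide exchange factor through which the T cell receptor switches on Ras, and WT cells carried the wild-type gene. Both groups were read as ribosome-protected fragments (RPF, pieces of mRNA left after nuclease digestion because a ribosome covers them), from cells given cycloheximide for 1 minute, and as total RNA from cells without that treatment. There were 2 Anaef RPF pools (3B and 4B) against 2 WT RPF pools (1B and 2B), each pool made from 2 samples, and 4 Anaef total RNA libraries (5 to 8) against 4 WT total RNA libraries (1 to 4). How animals were divided over the pools is not stated in the labels, and the p-values therefore speak of the spread among these 12 libraries alone.

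Zfp36 proteins grip AU-rich elements with a tandem pair of zinc fingers and bring in the CCR4-NOT complex, which shortens the poly(A) tail. Roquin-1 and Roquin-2, made from Rc3h1 and Rc3h2, read short stem loops in the 3′ UTR and recruit the same deadenylase, and a mutant Roquin-1 gives mice excess follicular helper T cells and autoimmunity. Regnase-1, made from Zc3h12a, is an endonuclease that cuts at stem loops in mRNAs under translation, and the protease Malt1 cleaves both Roquin and Regnase-1 once the T cell receptor is engaged.

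On GRCm38, with GENCODE M21 annotation, Zfp36 (ENSMUSG00000044786) lies at chr7:28376784-28380253 on the minus strand and has a coding sequence of 957 bases. Its paralogue Zfp36l1 (ENSMUSG00000021127) lies at chr12:80107754-80113013 on the minus strand and has 1014 coding bases, and Zfp36l2 (ENSMUSG00000045817) lies at chr17:84183931-84187947 on the minus strand and has 1452. Each of these 3 genes has 2 exons. Rc3h1 (ENSMUSG00000040423) lies at chr1:160906418-160974978 on the plus strand and Rc3h2 (ENSMUSG00000075376) at chr2:37370069-37422903 on the minus strand, with 20 exons each and coding sequences of 3390 and 3561 bases. Zc3h12a (ENSMUSG00000042677) lies at chr4:125118423-125127840 on the minus strand and has 6 exons and 1788 coding bases.

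The RNA-binding fingers of the Zfp36 and Roquin genes are shown as a feature found in both and because they show how alike the paralogues are there. Each finger holds 3 cysteines and a histidine that clasp a zinc ion, and capitals mark their codons. The stretches were read from the coding sequence of the main transcript (the GENCODE transcript with the longest coding sequence), and the bases are counted from its start codon.
Zfp36 finger 2, bases 415 to 474: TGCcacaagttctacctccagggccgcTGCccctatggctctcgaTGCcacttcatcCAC
Zfp36l1 finger 2, bases 472 to 531: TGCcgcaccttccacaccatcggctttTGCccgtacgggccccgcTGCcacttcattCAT
Zfp36l2 finger 2, bases 595 to 654: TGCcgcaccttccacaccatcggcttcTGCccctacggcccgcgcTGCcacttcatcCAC
Rc3h1 finger, bases 1255 to 1314: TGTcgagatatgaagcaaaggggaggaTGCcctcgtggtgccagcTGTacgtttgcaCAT
Rc3h2 finger, bases 1246 to 1305: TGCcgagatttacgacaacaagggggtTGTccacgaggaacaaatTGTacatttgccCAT
In finger 2, Zfp36l1 and Zfp36l2 matched at 54 of 60 bases (90.0%), with an identical run of up to 26 bases, and Zfp36 matched them at 66.7% and 75.0%. In finger 1, which is not shown, Zfp36l1 and Zfp36l2 matched at 49 of 60 bases (81.7%), and Zfp36 matched them at 70.0% and 66.7%. All 5 stretches shown have the same spacing of 8, 5 and 3 codons between the capitals. The search allowed only spacings at or close to 8 and 5, with the last fixed at 3, so this likeness is partly set by it. It found no such stretch in Zc3h12a, where a finger of another spacing would be missed. Over the whole coding sequence, Zfp36, Rc3h1, Rc3h2 and Zc3h12a shared 0 of their 30-base windows (about the length of a footprint) with another annotated transcript. Zfp36l2 shared 5.54% of them, and Zfp36l1 shared 25.0%, mostly with its processed pseudogene Zfp36l1-ps.

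Their own 3′ UTRs hold the kinds of element that these proteins read, and a few are shown for that reason. The heptamer TATTTAT, the DNA spelling of the core that Zfp36 fingers grip, was searched on the transcript's strand and found in 5 of the 6 genes, all but Zc3h12a. It occurs in 27.6% of the 21022 genes with an annotated 3′ UTR. Zfp36 has 3 copies within its 774 bases, and 1.3% of the 2393 UTRs whose length lies within 20% of that have at least as many. Zfp36l1 and Zfp36l2 also have 3 copies each, in UTRs of 1835 and 1822 bases, and 4.3% of UTRs of like length have at least as many. In the long UTRs of Rc3h1 and Rc3h2, with 2 and 3 copies, as many are found in 46.6% and 18.6%. The windows below are GRCm38 sequence in the sense of the gene, with the element in capitals.
Zfp36 at chr7:28376950-28376979 (minus strand): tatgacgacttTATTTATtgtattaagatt
Zfp36l1 at chr12:80108421-80108450 (minus strand): ttatcaaaacgTATTTATtgccaaactatg
Zfp36l2 at chr17:84184865-84184894 (minus strand): tgtccatactgTATTTATcgagtatgatga
Rc3h1 at chr1:160971653-160971682 (plus strand): agccaataacTTCTGTGAAgttgccttttc
Rc3h2 at chr2:37373801-37373830 (minus strand): tttaattaacTTCTGTGAAgttgtttactc
Tnf at chr17:35199577-35199606 (minus strand): cagacatgttTTCTGTGAAaacggagctga
The last 3 windows show TTCTGTGAA, the core of the stem loop of Tnf that Roquin is known to bind. It occurs in 2.3% of annotated 3′ UTRs, has 2 copies in Rc3h1 and 1 in Rc3h2, and was not found in the other 4 genes. Of UTRs whose length is like that of Rc3h1, 10.4% hold at least 1 copy and 0.3% hold as many as Rc3h1, and of those like Rc3h2 7.6% hold at least 1. In the Rc3h1 and Rc3h2 windows the flanking letters extend the arms of the possible hairpin to 6 paired bases, which 31 of the 503 matches in all 3′ UTRs (6.2%) reach. The resulting 15 letters, AACTTCTGTGAAGTT, stood in the 3′ UTR of 2 of the 21022 genes, Rc3h1 and Rc3h2 themselves. The Tnf window reaches 6 paired bases too, and its own 15 letters likewise stood in 2 genes. Such rarity is therefore not particular to Rc3h1 and Rc3h2. TTCTATGAA, a variant of the core, was in none of the 6 (0). A match of letters is a description and not a binding site.

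Total counts ran from 2868943 to 3464868 in Anaef RPF, against 4044330 to 7009342 in WT RPF, and from 18580747 to 39467754 in Anaef total RNA, against 15326842 to 40046317 in WT total RNA. CD4 T cell markers (Cd3e, Cd3d, Cd3g, Cd4, Cd28 and Themis) were read in every library, with a summed total RNA level of 2480 to 4230 CPM (counts scaled to a common library size) in Anaef and 2270 to 2570 CPM in WT. Plasma cell markers (Jchain, Mzb1, Sdc1, Tnfrsf17, Igha and Igkc) summed to 333 to 737 CPM in Anaef and 1150 to 5240 CPM in WT. Igkc alone was at 272 to 613 CPM in Anaef and 874 to 4830 CPM in WT. Of these markers, 3 of 6 in Anaef and 4 of 6 in WT had counts in every total RNA library. The 10 B cell markers summed to 11.7 to 35 CPM in Anaef and 33.9 to 67.5 CPM in WT, and the 8 myeloid markers to 12.5 to 16.4 CPM in Anaef and 20 to 24.8 CPM in WT, 2 of them at 0 in every Anaef library and 1 at 0 in every WT library. These 6 genes are expressed by many cell types, and the part of other cells in their levels was not tested; in bulk samples fewer cells of a type and less RNA per cell cannot be told apart.

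The total RNA comparison asks whether the transcripts of these regulators differ in amount between Anaef and WT cells. None of the 6 differed beyond the spread between libraries, and Zfp36 was the most and Zc3h12a the least abundant. By edgeR's quasi-likelihood test with Benjamini-Hochberg adjustment over 17876 genes, 0 of 6 passed 0.05, where 0.0224% of all genes did (4 genes), and 0 of 6 had an unadjusted p under 0.05, which 5.62% of all genes had; DESeq2 and limma-voom also called 0 of 6. The values are CPM on the scaled library size, given below in the order of the library numbers.

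Zfp36, or tristetraprolin, the founding member of its family, had 420.5, 339.7, 348 and 468 CPM of total RNA in Anaef libraries 5 to 8, against 328, 351, 438 and 398 CPM in WT libraries 1 to 4. The groups overlap, and the highest library is an Anaef library while the lowest is a WT library. The log2 fold change of Anaef over WT was 0.06 with a 95% interval of -0.29 to 0.40 (adjusted p = 0.989). Zfp36l1, which with Zfp36l2 guards developing thymocytes of mice against leukaemia, had 164.5, 107, 155 and 167 CPM in Anaef, against 148, 142, 136 and 144 CPM in WT. The coefficient of variation was 19% in Anaef, where library 6 is low, and 3.35% in WT, and the groups overlap. Its log2 fold change was 0.06 (interval -0.29 to 0.41, adjusted p = 0.989). More than 1 transcript may feed this row: 56.9% of the 50-base windows of the Zfp36l1 transcript also belong to another annotated gene, and 53.6% of all its windows are shared with Gm26669, a lincRNA on the opposite strand. Gm26669 itself had 10027 counts in Anaef and 6068 in WT total RNA, and Zfp36l1-ps 3057 in Anaef and 3125 in WT. No source used here says whether reads were counted by strand, so the total RNA level of Zfp36l1 is uncertain. Zfp36l2 had 63.5, 78.8, 55.5 and 76.1 CPM in Anaef, against 58.4, 65.9, 76.3 and 53.8 CPM in WT, which interleave. Its log2 fold change was 0.11 (interval -0.28 to 0.49, adjusted p = 0.985).

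Rc3h1, which encodes Roquin-1, had 104, 74.8, 118 and 104 CPM of total RNA in Anaef, against 133, 129.7, 82.5 and 126 CPM in WT. All WT libraries except 3 lie above all 4 Anaef libraries, and WT library 3 lies below 3 of them. The log2 fold change was -0.23 (interval -0.67 to 0.20, adjusted p = 0.95), and without WT library 3 it was -0.37 (adjusted p = 0.727). Rc3h2, which encodes Roquin-2, had 53.5, 68.1, 66.4 and 52.4 CPM in Anaef, against 80.7, 64.5, 45.9 and 71.2 CPM in WT. The same WT library is the lowest of the 8, and the log2 fold change was -0.13 (interval -0.56 to 0.30, adjusted p = 0.985), or -0.26 without that library (adjusted p = 0.82). Zc3h12a had 8.71, 4.23, 7.35 and 4.68 CPM in Anaef, from 123 to 321 counts a library, against 6.50, 7.68, 7.75 and 7.13 CPM in WT, from 98 to 353 counts. Anaef libraries 6 and 8 are below every WT library and Anaef library 5 is above every WT library. The log2 fold change was -0.22 (interval -0.90 to 0.46, adjusted p = 0.985). For 0 of the 6 genes did the genotypes stay apart in total RNA, a pattern that 3.59% of all genes tested showed (1.58% with Anaef higher and 2.01% with Anaef lower).

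**Figure D1:**
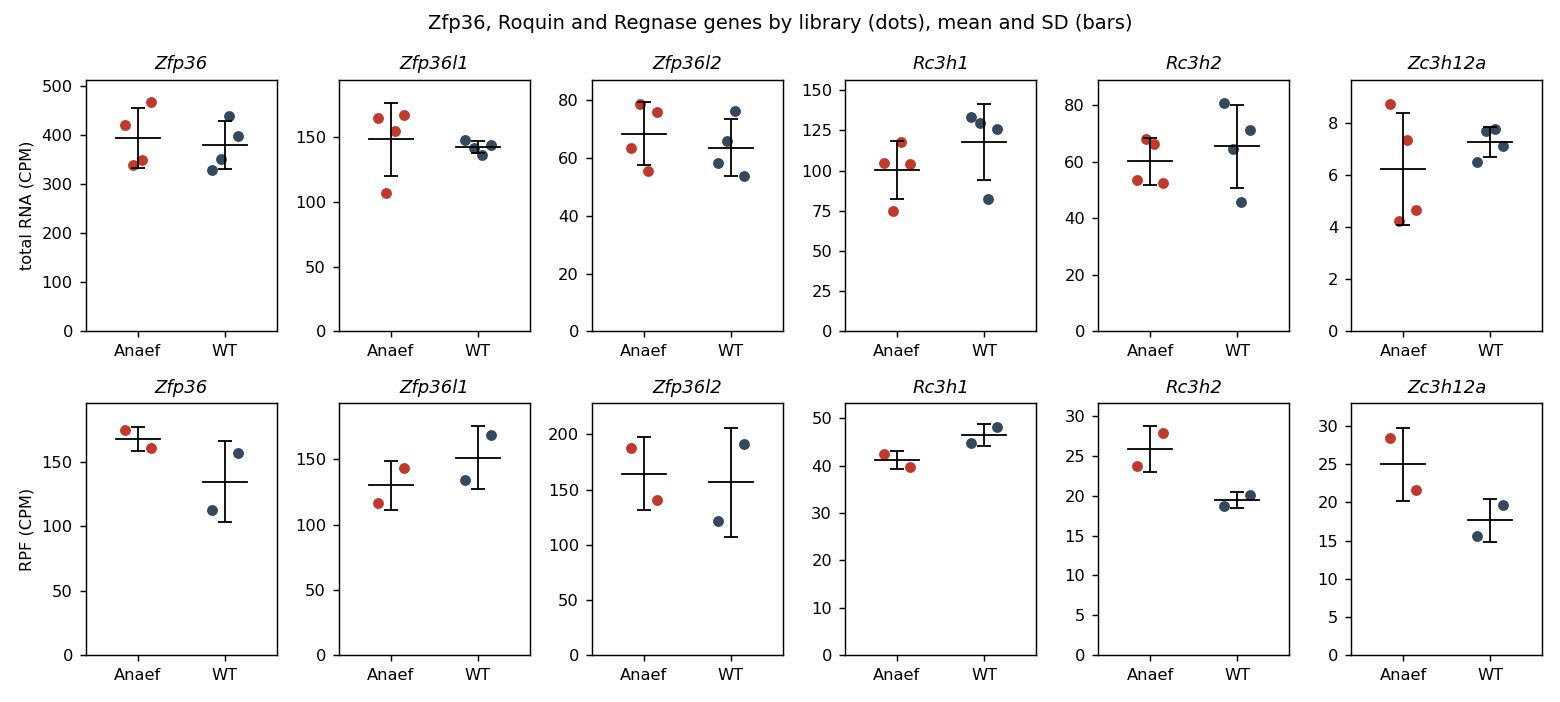
CPM of the 6 genes in every library (dots; total RNA above, RPF below), with Anaef left of WT, the mean as a line and the SD as bars (n = 4 and 4 in total RNA, 2 and 2 in RPF). In total RNA the genotypes overlap for all 6 genes, and in RPF they stay apart for Zfp36, Rc3h1, Rc3h2 and Zc3h12a.

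The RPF comparison asks whether more or fewer ribosomes sat on these mRNAs in Anaef cells. Zc3h12a, Rc3h2 and Zfp36 had more footprints in both Anaef pools than in either WT pool and Rc3h1 had fewer, but no gene passed the test. With edgeR, 0 of 6 passed 0.05 over 9710 genes, where 0% of all genes did (0 genes), and 0 of 6 had an unadjusted p under 0.05, which 11.9% of all genes had. DESeq2 called 197 of the 9710 genes and limma-voom 0, and both called 0 of the 6. Groups of 2 pools that do not overlap are common: 44.8% of all genes tested showed this, 22.3% with Anaef higher and 22.5% with Anaef lower, against 4 of the 6 genes here.

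Zfp36 had 174 and 161 CPM of RPF in Anaef pools 3B and 4B, against 112 and 157 CPM in WT pools 1B and 2B. The groups stay apart, but WT 2B lies much nearer to the Anaef pools than to WT 1B. The log2 fold change was 0.32 (interval -0.14 to 0.78, adjusted p = 0.55). Zfp36l1 had 117 and 143 CPM in Anaef, against 134 and 168 CPM in WT, which overlap (log2 fold change -0.22, interval -0.66 to 0.22, adjusted p = 0.683). Zfp36l2 had 188 and 141 CPM in Anaef, against 122 and 192 CPM in WT, where the WT pools enclose the Anaef pools. Its log2 fold change was 0.07 (interval -0.53 to 0.67, adjusted p = 0.942), and it turned to -0.23 without WT 1B and to -0.15 without Anaef 3B.

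Rc3h1 had 42.4 and 39.8 CPM of RPF in Anaef, against 44.9 and 48.1 CPM in WT. Both Anaef pools are the lower ones, and the log2 fold change was -0.18 (interval -0.58 to 0.23, adjusted p = 0.719), of the same sign as in total RNA. Rc3h2 had 23.8 and 27.9 CPM in Anaef, against 18.75 and 20.15 CPM in WT, resting on 80 to 83 counts in each Anaef pool and 83 to 127 in each WT pool. Here both Anaef pools are the higher ones, and the log2 fold change was 0.41 (interval -0.08 to 0.90, adjusted p = 0.477). Zc3h12a had 28.4 and 21.6 CPM in Anaef, from 99 and 62 counts, against 15.65 and 19.7 CPM in WT, from 106 and 81 counts. The Anaef pools are again higher, with the widest difference of the 6 genes at a log2 fold change of 0.52 (interval -0.07 to 1.10, adjusted p = 0.455). Among protein-coding genes, the fold changes of Zc3h12a and Rc3h2 stood at percentiles 92.3 and 88.3 and that of Zfp36 at 83.5. The intervals of all 6 genes reach across 0, and the widest, that of Zfp36l2, runs over more than 1 unit of log2.

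The model over all 12 libraries asks whether RPF relative to total RNA, a measure of translation per mRNA, differs between Anaef and WT. For 0 of 6 genes did this change pass 0.05 by edgeR, as for 0% of the 19031 genes tested (0 genes, with 636 at an unadjusted p under 0.05 and 10 called by DESeq2). Zc3h12a had the highest value at 0.72 (interval -0.29 to 1.73) and Rc3h2 the next at 0.52 (interval -0.19 to 1.23), both with an adjusted p of 1. Both genes had more footprints and less total RNA in the Anaef means. Zfp36 was at 0.25 (interval -0.36 to 0.86) and Zfp36l1 at -0.29 (interval -0.88 to 0.30). Rc3h1 at 0.04 and Zfp36l2 at -0.04 lay near 0, with intervals of -0.64 to 0.72 and -0.79 to 0.70, and their signs turned when single libraries were left out. These 3 genotype comparisons use the same libraries and are not independent of each other.

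**Figure D2:**
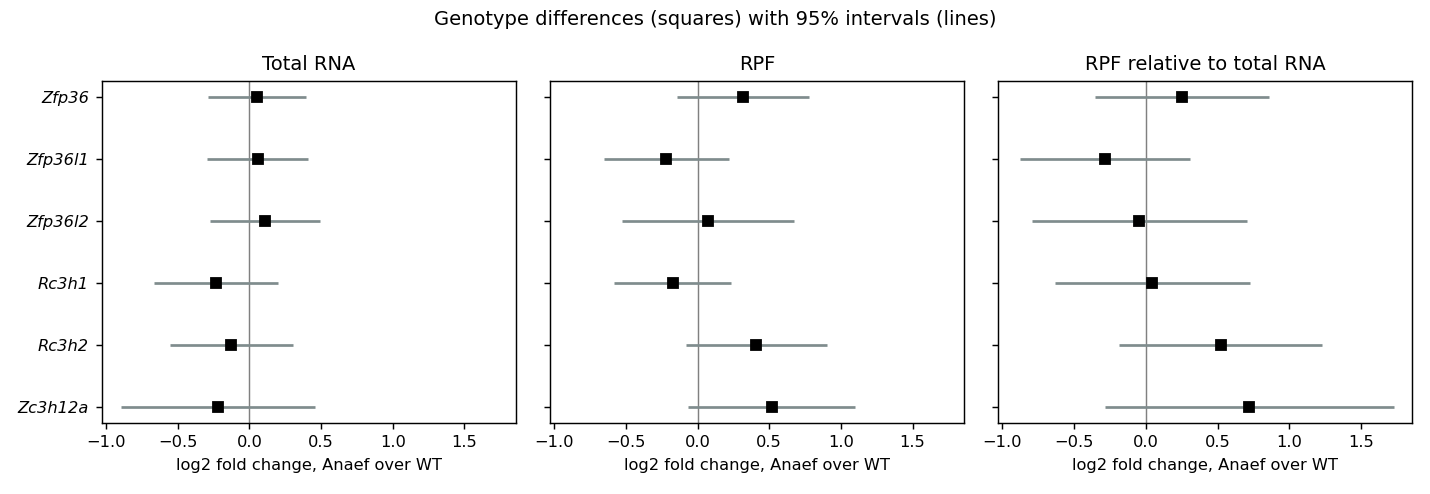
Log2 fold change of Anaef over WT (squares, horizontal axis) with its 95% interval (lines) for the 6 genes, in total RNA, in RPF and in RPF relative to total RNA. Every interval crosses 0, and the square farthest from it is that of Zc3h12a at 0.72 in RPF relative to total RNA.

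Levels can be compared between genes only per length, so total RNA was divided by the length of the main transcript and RPF by that of the coding sequence, which ribosomes cover. Zfp36 mRNA was the most abundant in both genotypes, at 141 ± 21.9 CPM per kb in Anaef and 136 ± 17.6 CPM per kb in WT (SD, n = 4 each). Zfp36l1 followed at 49.6 ± 9.41 in Anaef and 47.7 ± 1.597 in WT, and Zfp36l2 at 19.4 ± 3.10 in Anaef and 18.0 ± 2.79 in WT. The Roquin mRNAs were scarcer. Rc3h1 was at 9.11 ± 1.66 CPM per kb in Anaef and 10.7 ± 2.16 in WT, and Rc3h2 at 6.83 ± 0.944 in Anaef and 7.45 ± 1.67 in WT. Zc3h12a was lowest at 2.27 ± 0.779 CPM per kb in Anaef and 2.64 ± 0.211 in WT. With this length the ranges of neighbours in the order stay apart in both genotypes, except those of Rc3h1 and Rc3h2. Other lengths change which neighbours overlap. Per kb of all annotated exons, Rc3h1 and Rc3h2 stay apart in both genotypes. Rc3h2 and Zc3h12a then overlap in both, in WT at 2.34 to 4.11 and 2.26 to 2.69. Per coding kb, Rc3h1 and Rc3h2 stay apart in both genotypes, and Zfp36l2 and Rc3h1 overlap in WT. The length of Rc3h2 matters here: over all its annotated exons (19624 bases, against 8799 in the main transcript) its level was 3.06 CPM per kb in Anaef and 3.34 in WT.

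Footprints gave another order. Per kb of coding sequence, Zfp36 had 175 ± 9.97 CPM in Anaef and 141 ± 32.9 in WT (SD, n = 2 each), Zfp36l1 128 ± 18.6 in Anaef and 149 ± 23.8 in WT, and Zfp36l2 113 ± 22.8 in Anaef and 108 ± 34.2 in WT. The 3 Zfp36 genes overlap in WT, and in Anaef Zfp36 stays above Zfp36l1 while Zfp36l1 and Zfp36l2 overlap. So the highest of the 3 means was 1.55 times the lowest by footprints in Anaef and 1.38 times in WT, whereas it was 7.28 times by total RNA in Anaef and 7.53 times in WT. Zc3h12a had 14.0 ± 2.67 CPM of RPF per coding kb in Anaef and 9.88 ± 1.59 in WT, Rc3h1 12.1 ± 0.555 in Anaef and 13.7 ± 0.666 in WT, and Rc3h2 7.26 ± 0.817 in Anaef and 5.46 ± 0.278 in WT. In WT these last 3 stay apart with Rc3h1 on top, and in Anaef Zc3h12a and Rc3h1 overlap. Of the summed footprint level of the 3 Zfp36 genes, Zfp36 took 42.7% and 41.3% in the Anaef pools, against 35.2% and 35.5% in the WT pools. These shares do not overlap between the genotypes, while the shares of total RNA were 64.9% to 68.4% in Anaef and 64.1% to 70.01% in WT. The footprint shares of Zfp36l1 also stay apart, at 27.0% to 34.8% in Anaef and 35.9% to 39.7% in WT, and those of Zfp36l2 overlap. Shares of 1 sum depend on each other. In RPF levels, 44.8% of all genes tested stay apart between the genotypes. The difference in shares was not tested.

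**Figure D3:**
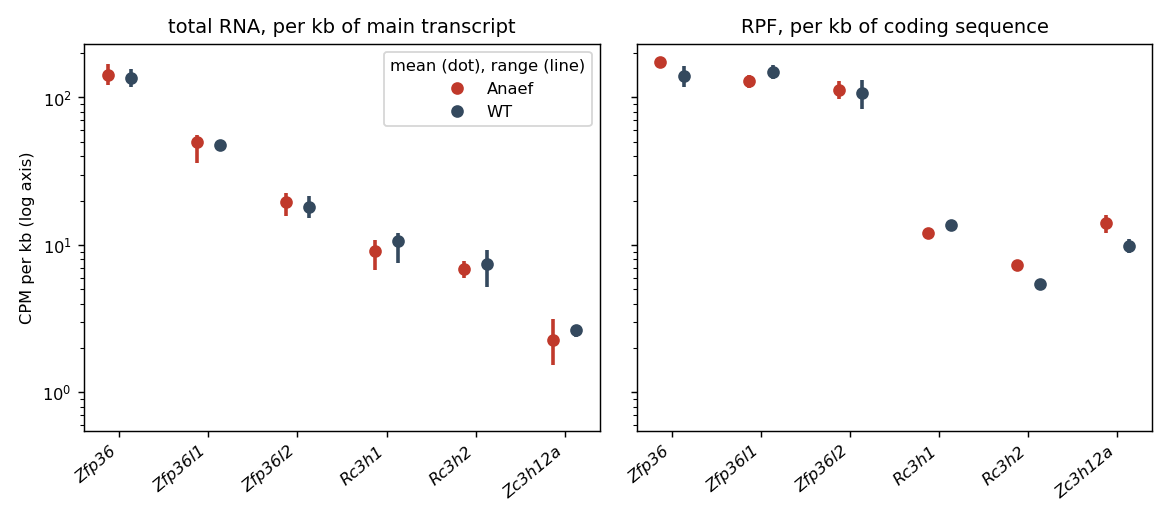
Level of each gene in CPM per kb on a log axis, as the mean (dot) and range (line) over libraries, Anaef left of WT. Total RNA per kb of main transcript (left) falls from Zfp36 at 141 and 136 to Zc3h12a at 2.27 and 2.64 in Anaef and WT, while the 3 Zfp36 genes lie close together in RPF per kb of coding sequence (right).

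The comparison of RPF with total RNA within each genotype asks which mRNAs carried more footprints than their abundance gives. Zfp36, Zfp36l1, Rc3h1 and Rc3h2 were lower in RPF than in total RNA in both genotypes, and Zc3h12a was higher in Anaef. In Anaef 5 of 6 genes passed 0.05 by edgeR, where 67.1% of all genes did (16.4% higher and 50.8% lower; 21.6% and 36.2% of nuclear protein-coding genes). In WT 4 of 6 passed, where 74% of all genes did (19.6% higher and 54.4% lower; 26.5% and 39.3% of protein-coding genes). Calls are common here, so each value is set against the median log2 value of protein-coding genes, which was -0.47 in Anaef and -0.36 in WT. The kits and the cell numbers differ between the assays, and only the RPF counts come from columns named as masked. The part of these differences in the values was not tested. The part of the mRNA that can be read also differs, and ratios with and without length are given below.

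Zfp36 had a log2 value of RPF over total RNA of -1.98 ± 0.21 in Anaef (SE, adjusted p = 9.58e-05) and -2.21 ± 0.22 in WT (adjusted p = 6.41e-05). Its offsets from the protein-coding median were -1.51 in Anaef and -1.86 in WT. Rc3h1 was alike, at -2.04 ± 0.25 in Anaef (adjusted p = 0.000188) and -2.06 ± 0.24 in WT (adjusted p = 0.000154). Rc3h2 was at -1.97 ± 0.24 in Anaef (adjusted p = 0.000204) and -2.47 ± 0.27 in WT (adjusted p = 0.000111), the lowest value of the 6 genes in WT. Zfp36l1 was closer to the median, at -0.94 ± 0.24 in Anaef (adjusted p = 0.00832) and -0.63 ± 0.16 in WT (adjusted p = 0.00712), offsets of -0.47 and -0.28. Its call was lost without Anaef 3B (adjusted p = 0.0935), without WT 1B (adjusted p = 0.0699) and, in Anaef, with limma-voom (adjusted p = 0.0541).

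Zfp36l2 and Zc3h12a lay on the other side. Zfp36l2 had 0.51 ± 0.22 in Anaef (adjusted p = 0.0678) and 0.58 ± 0.23 in WT (adjusted p = 0.0526), neither past the threshold, with offsets from the protein-coding median of 0.99 and 0.94. Zc3h12a was higher in RPF in Anaef at 1.25 ± 0.41 (adjusted p = 0.0242), an offset of 1.73, and had 0.56 ± 0.24 in WT (adjusted p = 0.0634), an offset of 0.92. The Anaef call of Zc3h12a was lost without Anaef 3B (adjusted p = 0.18) and without Anaef 4B (adjusted p = 0.0674). Another scaling, RLE size factors, moved the median of all genes in Anaef to -1.67, against -1.79 with TMM, and brought Zfp36l2 past the threshold in Anaef (adjusted p = 0.035), as DESeq2 did (adjusted p = 0.0227). With the same scaling Zfp36l2 and Zc3h12a passed in WT (adjusted p = 0.0418 and 0.046), and so they did by DESeq2 (adjusted p = 0.0275 and 0.0354). Zfp36l2 also passed in WT when nuclear protein-coding genes alone were fitted (adjusted p = 0.0276). Without WT total RNA library 3 both passed in WT as well (adjusted p = 0.0204 and 0.0391), Zfp36l2 also passed in WT without WT 1B (adjusted p = 0.0277), and without Anaef total RNA library 6 it passed in Anaef (adjusted p = 0.048).

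Each assay was also divided by its own length. Relative to the median of the 6012 protein-coding genes with at least 10 CPM of total RNA in Anaef, the log2 ratio of RPF per coding kb to total RNA per transcript kb was 1.29 for Zc3h12a and 1.21 for Zfp36l2, at percentiles 79.3 and 77.9. Zfp36l1 lay at 0.03, close to the median gene. Rc3h1 was at -0.92, Zfp36 at -1.03 and Rc3h2 at -1.25, at percentiles 29.1, 26.9 and 22.8. In WT, against 6036 genes, Zfp36l2 was at 1.15, Zc3h12a at 0.47, Zfp36l1 at 0.21, Rc3h1 at -1.08, Zfp36 at -1.38 and Rc3h2 at -1.88. All 6 genes thus lie inside the bulk of the distribution, between percentiles 14.1 and 79.3 over both genotypes. Zc3h12a itself has under 10 CPM of total RNA and is set against genes more abundant than itself. With the length of all annotated exons in place of the main transcript, Zfp36l1 turned to -0.59 in Anaef and -0.43 in WT, and Zc3h12a in WT to -0.11. Without any length, the WT ratios were -1.74 for Rc3h1, -1.89 for Zfp36, -2.15 for Rc3h2 and -0.31 for Zfp36l1. Those of Zc3h12a and Zfp36l2 were 0.88 and 0.90. Length thus changed the size of these values, and for Zfp36l1 the sign.

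**Figure D4:**
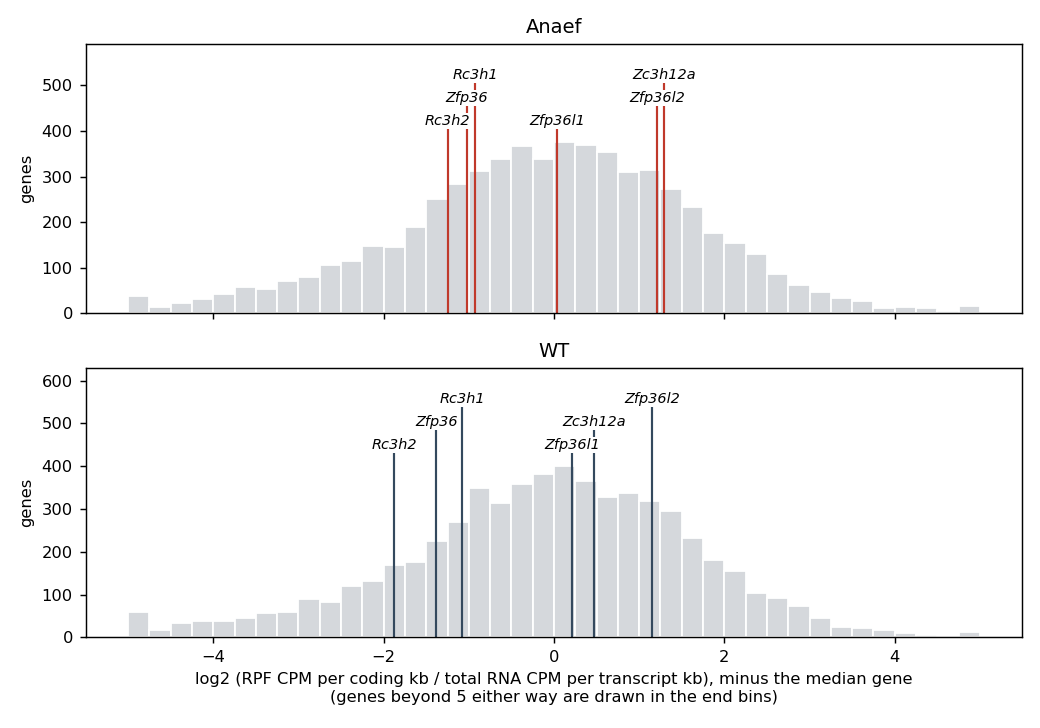
Distribution over protein-coding genes of the log2 ratio of RPF per coding kb to total RNA per transcript kb, relative to the median gene (grey bars; vertical axis, number of genes), in Anaef (above) and WT (below), with vertical lines at the 6 genes. Zfp36l2 and Zc3h12a lie right of the median and Zfp36, Rc3h1 and Rc3h2 left of it in both genotypes.

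Among the total RNA libraries, Anaef 6 and WT 3 give the extreme value of most of the 6 genes. Anaef library 6 had the lowest Zfp36, Zfp36l1, Rc3h1 and Zc3h12a and the highest Zfp36l2 and Rc3h2 of the Anaef libraries, and its CD4 T cell marker sum of 4230 CPM is above the 2480 to 2870 CPM of the other 3. WT library 3 had the lowest Zfp36l1, Rc3h1 and Rc3h2 and the highest Zfp36, Zfp36l2 and Zc3h12a of the WT libraries, and it is the shallowest at 15326842 counts. The part of either in the member levels was not tested. Without Anaef 6 the log2 fold changes of Anaef over WT ran from -0.19 for Rc3h2 to 0.19 for Zfp36l1, and without WT 3 from -0.37 for Rc3h1 to 0.21 for Zfp36l2, with 0 of 6 called each time.

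The genes whose total RNA followed each member most closely were found by Pearson's correlation of log2 CPM over the 8 libraries among 6470 protein-coding genes, as a description. All points share their library, and with so many genes compared high values are to be found for any gene. Zfp36 was most like Rps25 (r = 0.964), Tagln2 (0.956) and Gnpnat1 (0.945), and Zfp36l1 most like Gpd1l (0.972), Grpel2 (0.965) and Arhgef2 (0.963). Zfp36l2 was most like Apeh (0.978), Zfp457 (0.961) and Tle4 (0.948). Rc3h1 was most like Klhl6 (0.972), Rangap1 (0.963) and Uso1 (0.96), and Rc3h2 most like Art2b (0.971), Tomm34 (0.962) and Cyp4f13 (0.96). Zc3h12a was most like Preb (0.991), Cd6 (0.965) and Hgs (0.947). None of the 6 genes is among the closest of another, but Zc3h12a, with a mean under 10 CPM, was not among the genes compared.

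Of the other Zfp36 and Regnase genes, Zc3h12d, which encodes Regnase-4, was the most abundant. Zc3h12d had 34.8, 84.4, 32.1 and 51.1 CPM of total RNA in Anaef, against 44.4, 30.5, 27.1 and 41.5 CPM in WT. These overlap, Anaef library 6 is again the extreme, and the log2 fold change was 0.49 (SE 0.31, adjusted p = 0.934). Its RPF level was 64.2 and 76.1 CPM in Anaef and 73.5 and 77.9 CPM in WT (log2 fold change -0.11, SE 0.17, adjusted p = 0.84). In all 12 libraries Zc3h12d thus lay above Zc3h12a in CPM. Zc3h12b had a mean of 6.63 CPM of total RNA in Anaef and 6.05 CPM in WT, with 1 RPF count in Anaef and 1 in WT. Zc3h12c had 29 counts of total RNA in Anaef and 20 in WT, and Zfp36l3, a placental gene of mice, had 0 in both.

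Of 12 mRNAs described as targets of Zfp36 proteins, 10 hold TATTTAT in their 3′ UTR (27.6% of all genes do), from 1 copy in Irf8 to 8 in Tnf and 9 in Csf2. The list comes from general knowledge, which may rest on such elements, so this count is a description. In total RNA 7 of the 12 had enough counts to be tested and 0 passed; their median log2 fold change of Anaef over WT was 0.38, beside 0.01 over all genes tested, with 5 above 0 (50.7% of all genes are). Rel, the NF-kappaB subunit c-Rel, had 99.2, 137, 105 and 83.5 CPM in Anaef, against 78.6, 70.7, 68.0 and 79.4 CPM in WT. Every Anaef library is above every WT library, and the log2 fold change was 0.52 (SE 0.17, adjusted p = 0.778). Myc, the growth factor-induced transcription factor, was at 0.38 (SE 0.21), Notch1, a receptor of T cell differentiation, at 0.24 (SE 0.16), and Il2, the T cell growth factor, at 1.41 (SE 0.83), from means of 0.853 CPM in Anaef and 0.307 CPM in WT. Cytokine targets were near the floor of detection. Ifng had 62 counts of total RNA over the Anaef libraries and 35 over the WT libraries, Il10 47 over Anaef and 15 over WT, Csf2 0 over Anaef and 7 over WT, and the early gene Fos 96 over Anaef and 19 over WT. These were not tested. In RPF 8 of the 12 were tested and 0 passed, with a median of 0.15 (all genes 0.01) and 6 above 0. Tnf had 10.9 and 7.33 CPM of RPF in Anaef, against 4.72 and 5.83 CPM in WT (0.81, SE 0.37, adjusted p = 0.443). Irf8, a factor that B and myeloid cells express strongly, had 5.45 and 8.02 CPM of RPF in Anaef, against 11.5 and 9.71 CPM in WT (-0.68, SE 0.34, adjusted p = 0.474). The B cell marker sum in RPF was 22.4 and 40.1 CPM in the same Anaef pools, against 92.3 and 50.7 CPM in WT, and its part in the Irf8 level was not tested. Ccnd3, a G1 cyclin, was at 0.21 (SE 0.18).

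All 15 mRNAs taken as targets of Roquin or Regnase-1 were tested in total RNA and 0 passed. Their median log2 fold change was 0.39, beside 0.01 over all genes, and 13 were above 0 (50.7% of all genes). Nfkbiz, an atypical inhibitor of NF-kappaB, had 37.1, 43.0, 43.3 and 35.4 CPM in Anaef, against 31.4, 31.8, 23.5 and 29.1 CPM in WT, all Anaef libraries above all WT libraries (0.45, SE 0.17, adjusted p = 0.84). Foxo1, the factor of naive T cell homing and survival, had 611, 713, 488 and 542 CPM in Anaef, against 442, 413, 459 and 483 CPM in WT, again without overlap (0.39, SE 0.14, adjusted p = 0.84). Icos, the costimulatory receptor of follicular helper cells and a classical Roquin target, had 118, 205, 119 and 119 CPM in Anaef, against 114, 124, 62.7 and 97.4 CPM in WT. These overlap, and Anaef 6 and WT 3 are the extremes (0.49, SE 0.25, adjusted p = 0.897). In RPF 14 of the 15 were tested and 0 passed, with a median of 0.27 (all genes 0.01) and 12 above 0 (50.8% of all genes). Tnfrsf4, the receptor OX40, had 41.3 and 39.1 CPM in Anaef, against 23.9 and 23.1 CPM in WT (0.77, SE 0.17, adjusted p = 0.344), and passed only without a filter on low counts (adjusted p = 0.0329). Ctla4, the inhibitory receptor, had 36.7 and 32.1 CPM in Anaef and 26.4 and 23.8 CPM in WT (0.45, SE 0.19), and Batf, a partner of AP-1 factors, 31.0 and 32.4 CPM in Anaef and 19.5 and 25.5 CPM in WT (0.50, SE 0.21). Foxo1 footprints overlapped between genotypes (-0.18 log2), and the change in its RPF relative to total RNA was -0.58 (SE 0.27, adjusted p = 1). For RPF relative to total RNA, 0 genes of either target list passed. Among those with the lower p-values were, beside Foxo1, Rel at -0.40 and Bcl2l1, an inhibitor of apoptosis, at 1.196 among the Roquin and Regnase-1 targets, and Fos at -2.37, Myc at -0.54 and Ccnd3 at 0.24 among the Zfp36 targets, each with an adjusted p of 1. Both target lists were drawn from general knowledge with earlier results of these data known, and Rel, Il2 and Tnf stand in both.

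Sequence elements of the Roquin and Regnase-1 targets are shown for comparison with the Rc3h1 and Rc3h2 windows above, with the core in capitals.
Nfkbiz at chr16:55812606-55812635 (minus strand): tgtaagttgtTTCTATGAAacaaacccatt
Nfkbid at chr7:30428395-30428424 (plus strand): tctaggtgatTTCTGTGAAatcgagcccac
Icos at chr1:60999479-60999508 (plus strand): agaacaaaatTTCTGTGAAataaaatctgg
The arms can pair over 7 bases in Nfkbiz, 6 in Nfkbid and 5 in Icos. TTCTGTGAA was in 4 of the 15 targets (2.3% of all genes) and TTCTATGAA in 1 (1.4% of all genes). The targets were listed from general knowledge, and Tnf, whose stem loop gave the core, is among the 4. These counts are therefore a description and not an independent result. The longest annotated 3′ UTR was searched, and that of the Icos main transcript, at 106 bases, holds 0 copies. In Bcl2l1, also among the 4, the arms pair over 3 bases only. Nfkbid, an atypical inhibitor of NF-kappaB like Nfkbiz, had 17.02 CPM of total RNA in Anaef and 15.9 CPM in WT (0.10 log2, adjusted p = 0.989).

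Of 24 regulators and cofactors of the 6 proteins, 0 passed by edgeR in either assay. The median log2 fold change was -0.01 in total RNA and 0.06 in RPF. An unadjusted p under 0.05 was found for 2 of 24 in total RNA (5.62% of all genes) and 4 of 24 in RPF (11.9% of all genes). For RPF relative to total RNA it was found for 4 of 24, beside 636 of all 19031 genes tested, and 0 of 24 passed. The list as a whole was not tested, and changes in opposite directions can cancel in a median. In total RNA Arid5a, which counters Regnase-1 on the Il6 mRNA, had 34.8, 26.1, 39.1 and 39.9 CPM in Anaef, against 52.2, 50.8, 39.2 and 54.6 CPM in WT, where WT library 3 falls among the Anaef libraries (-0.49, SE 0.19, adjusted p = 0.84). Dusp1, the phosphatase that switches off p38, was at 0.83 (SE 0.34, adjusted p = 0.849), with 47.0 CPM in Anaef 6 and 11.5 to 24.4 CPM in the other 7 libraries. Mapk14, the kinase p38 alpha upstream of the kinase that phosphorylates Zfp36, had 361, 404, 211 and 310 CPM in Anaef, against 150, 171, 351 and 172 CPM in WT, with WT 3 again apart from its group (0.61, SE 0.29, adjusted p = 0.896). Fbxw11, a substrate receptor of a ubiquitin ligase, was at -0.32 (SE 0.24). In RPF Mapk14 went the other way, with 49.0 and 31.8 CPM in Anaef against 76.0 and 84.7 CPM in WT (-0.99, SE 0.24, adjusted p = 0.344). It passed with DESeq2 (adjusted p = 0.00889), without a filter on low counts (adjusted p = 0.000532) and without Anaef 3B (adjusted p = 0.0189). The change in its RPF relative to total RNA was -1.598 (SE 0.52, adjusted p = 1). Ddx6, a helicase of mRNA decay and repression, had 593 and 638 CPM of RPF in Anaef and 473 and 429 CPM in WT (0.45, SE 0.13, adjusted p = 0.344), and passed with DESeq2 (adjusted p = 0.0202). Ikbkb, a kinase of the IKK complex that marks Regnase-1 for destruction, had 53.3 and 52.3 CPM of RPF in Anaef and 77.5 and 76.2 CPM in WT (-0.54, SE 0.16, adjusted p = 0.344). Mapkapk2, the kinase that phosphorylates Zfp36, was at -0.52 (SE 0.22). For RPF relative to total RNA, Arid5a was at 0.80 (SE 0.33), Ddx6 at 0.55 (SE 0.21) and Ikbkb at -0.78 (SE 0.34).

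**Figure D5:**
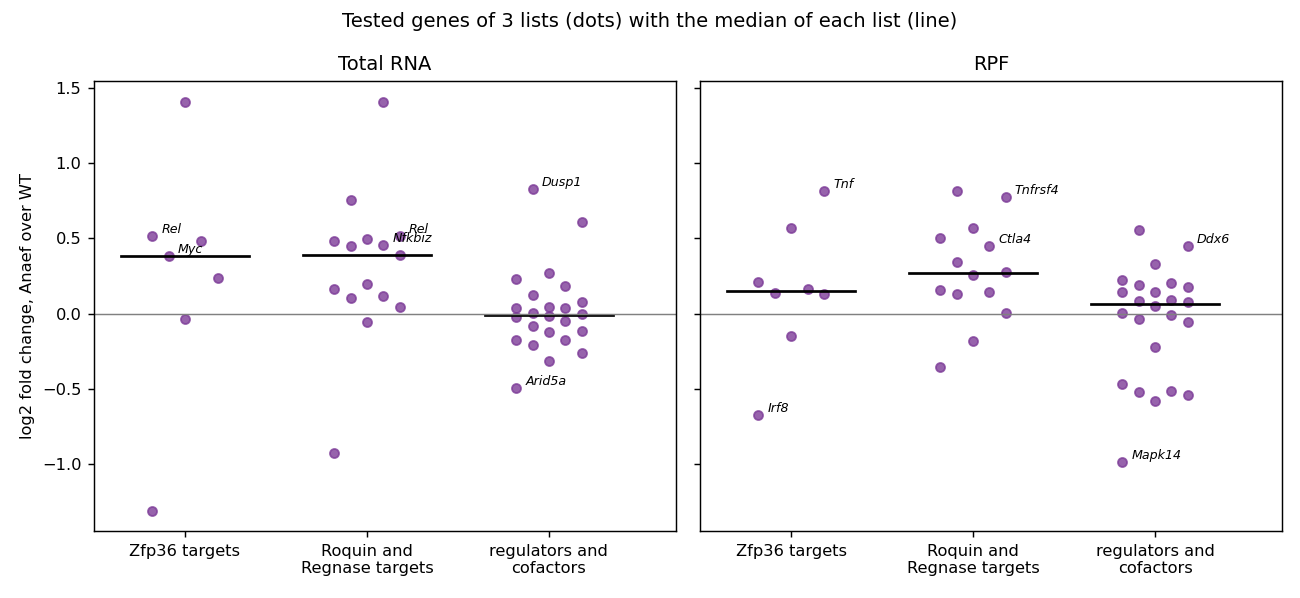
Log2 fold change of Anaef over WT (vertical axis) of each tested gene (dots) of the Zfp36 target, Roquin and Regnase target, and regulator and cofactor lists, in total RNA (left) and RPF (right), with the median of each list as a line and the 2 genes of smallest p per list named. The Roquin and Regnase target medians are 0.39 in total RNA and 0.27 in RPF, and no gene passed 0.05 by edgeR.

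Zfp36 is induced as an immediate early gene in stimulated lymphocytes, so the early genes were set beside it. The 14 genes of that list summed to 267 to 310 CPM of total RNA in Anaef and 274 to 309 CPM in WT, and to 839 to 867 CPM of RPF in Anaef and 731 to 897 CPM in WT. The sums overlap in both assays, as Zfp36 does in total RNA but not in RPF. Changes in opposite directions can cancel in a sum. By abundance the leading members were Egr1 at 57.2 to 82.8 CPM in Anaef and 91.2 to 106 CPM in WT, Cd69 at 44.5 to 72.9 in Anaef and 41.5 to 73.6 in WT, Klf6 at 27.4 to 69.1 in Anaef and 32.4 to 43.5 in WT, and Btg2 at 24.8 to 51.2 in Anaef and 28.4 to 44.1 in WT. In total RNA Egr1 alone of these 4 does not overlap (log2 fold change -0.46, SE 0.16, adjusted p = 0.836), a pattern of 3.59% of all genes tested. In RPF Egr1 had 67.1 and 55.5 CPM in Anaef, against 79.4 and 107 CPM in WT (-0.60, SE 0.21, adjusted p = 0.378 by edgeR). Btg2 stayed apart in RPF with Anaef higher (0.29, SE 0.18), and Cd69 and Klf6 overlapped. Of all genes tested, 44.8% stay apart in RPF. The RefSeq promoter table of GRCm38.p6 holds 5 of the 6 genes, over 250 bases before to 50 bases after the start. There the Zfp36 promoter has the letters CCATAAAAGG, a match to the CArG box, 58 bases before the start. That promoter, chr7:28379179-28379478, lies inside the GENCODE gene, which begins at 28380253 and whose main transcript has a 5′ UTR of 1056 bases. The start in the promoter table is thus not that of the main transcript used for the levels per kb. Which start these cells use was not tested. The CArG box is found in 1.63% of 32851 promoters and in none of the other 4 (0). GCGGGGGCG, a site of the Egr type, stands in the Zfp36 promoter as well and in 2.91% of all promoters. Both strands were searched, also for GCGTGGGCG (0.61% of promoters) and TGACGTCA (1.79%), which none of the 5 promoters holds (0). No footprint or RNA value bears on these letters.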

How the data were processed

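Deposited counts per Ensembl gene were analysed for 12 libraries. Per the labels' protocols, total RNA libraries were made from bead-captured mRNA with Nugen and Nextera XT chemistry, and RPF libraries with the TruSeq Ribo Profile kit after MNase digestion and a sucrose cushion. The submitters' processing notes name TopHat 1.4.1, Bowtie 0.2.17 and GRCm38; the counter, annotation, strand setting and treatment of reads with several hits are not stated in any source used here. The columns of RPF counts are named as masked and those of total RNA counts are not. The part of such masking in the RPF values, also in rows at 0 RPF counts, was not tested. Of the 45669 rows, 44595 matched a GENCODE M21 gene, 263 join several IDs and 811 had no match.

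From these counts, log2 fold changes and adjusted p-values were computed with edgeR 4.0.16 (R 4.3.3, limma 3.58.1): quasi-likelihood F test, TMM scaling, filterByExpr, Benjamini-Hochberg adjustment over all genes tested, threshold 0.05. Genotypes were fitted within each assay, RPF against total RNA within each genotype, and the change in RPF relative to total RNA over all 12 libraries; the fits were tested on simulated data. Per-library values are CPM on TMM-scaled sizes within an assay, so levels of the assays are each relative to their own library. Alternatives were DESeq2 1.42.0, RLE factors, no filter, limma-voom, nuclear protein-coding genes only, all libraries in one fit, each library left out, and other lengths. Tables and figures were made with Python 3.11.15, pandas 2.3.3, numpy 2.4.6 and matplotlib 3.10.9.

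All 6 genes are named. From the paralogue, target and regulator lists, the genes named are those called and the 4 of smallest p per comparison, with the 4 most abundant early genes, the 3 genes most like each member among those of at least 10 CPM, and genes shown for sequence elements or for low counts. A gene that this rule names is not reported here. The 6 genes and the lists were chosen with earlier results of these data known. Depth ranged from 2868943 to 40046317 counts per library; the reads carry no molecular identifiers and may be copies of 1 molecule, and among the 6 genes the footprints of Zc3h12a and Rc3h2 rest on the fewest counts.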

Additional observations from a re-analysis of the deposited data

Results flagged for a closer look

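Rc3h1 in WT total RNA library 3 stood at 82.5 CPM, apart from the other WT libraries at 126 to 133 CPM. Its gap to the nearest of them was 0.851 of the range of the group, above Dixon's 95% critical value for 4 samples. This was the only such case among the 12 groups of 4 tested (6 genes in 2 genotypes). Chance gives about 1 in 20 for each single group, so 1 case among 12 is not unusual. The groups also share libraries and are not independent. Without that library the log2 fold change of Rc3h1, Anaef over WT, was -0.37, against -0.23 with it, and it was not called either way.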

How the results depend on the processing

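Over 5 comparisons the 30 log2 fold changes of the 6 genes were recomputed 378 times, and 346 kept their direction and their side of the threshold; 16 turned direction, none of them called, 5 lost a call and 11 gained one. Leaving out each library in turn gave -0.035 to 0.13 for Zfp36 and -0.0046 to 0.19 for Zfp36l1 in total RNA, -0.23 to 0.43 for Zfp36l2 in RPF, and, for RPF relative to total RNA between genotypes, -0.37 to 0.30 for Zfp36l2 (0.013 with limma-voom) and -0.095 to 0.16 for Rc3h1. The number of the 6 genes called in RPF over total RNA in Anaef ran from 3 to 6, lowest without Anaef 3B. Among the listed targets and regulators in RPF, 2 genes were called with DESeq2, 2 without a filter on low counts, and 0 to 1 with a library left out, against 0; the cause was not tested. Over all genes DESeq2 called 120 in total RNA (4 with edgeR, 2 with limma-voom, 0 among nuclear protein-coding genes alone), 197 in RPF (0 with edgeR, 514 with no filter, 6 among protein-coding genes alone, 211 without Anaef 3B) and 10 for the change in RPF relative to total RNA (0). The main transcript length used for total RNA levels was chosen after seeing the data; the lengths planned gave, for Zfp36 in WT, 109 CPM per kb of all exons and 396 per coding kb, against 136. The other lengths for the ratio of RPF to total RNA were also chosen after seeing the data. No paired analysis was possible because the genotypes share no replicate numbers. With 2 pools a genotype, 0.41 and 0.52 in the footprints of Rc3h2 and Zc3h12a were not separable from the spread at this depth.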
